A study of Mus musculus with 12 samples.

Results

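The genes described here are 10 markers used to recognise fibroblasts or their activated state: Lrrc15, Fbln2, Pdpn, Fap, Thy1, Vim, S100a4, Twist1, Twist2 and Prrx1. They were taken by name, and every probe set whose platform annotation gave exactly 1 symbol, that of a member, was read. This gave 19 probe sets for the 10 genes, out of 18193 genes measured. Each gene is given by its brightest probe set over the 12 arrays, and the other probe sets are set beside it.

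RNA of sorted mouse skin fibroblasts was measured on Affymetrix arrays, 1 array per sample and 4 arrays in each of 3 groups. All mice were males 7 weeks old with a PDGFRα-H2B-eGFP allele, a nuclear green fluorescent reporter for PDGF receptor alpha, and GFP-positive dermal cells of the back were sorted. The WT group came from normal wild-type skin. The InvEE group came from inflamed skin of InvEE mice, in which an activated MEK1 is driven by the involucrin promoter of the differentiating epidermis, so that the transgene acts outside the fibroblasts. The Pap group came from tumour-associated (papilloma) skin of InvEE mice and therefore carries the same transgene. The labels do not say that arrays of a group stand for separate animals, so every p-value here rests on variation among samples that could be technical.

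Fibroblasts are the matrix-producing cells of the dermis. No single gene marks all of them: vimentin, Thy1 (CD90) and the transcription factor Prrx1 are read as general mesenchymal markers, while the surface protease FAP, podoplanin, S100a4 (fibroblast-specific protein) and the membrane protein LRRC15 are used as markers of activated or tumour-associated fibroblasts. Fibulin 2 is a secreted protein of elastic fibres and basement membranes, and Twist1 and Twist2 are paired basic helix-loop-helix transcription factors of mesenchyme. S100a4, Thy1 and podoplanin are also made by other skin cells, among them leukocytes, neurons and lymphatic endothelium. In sorted bulk samples, fewer cells of a type and less RNA per cell cannot be told apart.

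Values are on a log2 scale after quantile normalization between arrays, so a difference of 1 is a doubling. A difference was called at an adjusted p under 0.05 by limma, with Benjamini-Hochberg adjustment over all 18193 genes. Since the background correction of the deposited values is not known, the size of any difference that starts from a dim value depends on it. The lowest 40% of probe-set means lay under 6.16, and values under that limit are called dim.

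The gene of the sorting reporter, Pdgfra, lay between 9.26 and 11.26 over all arrays and was 0.93 ± 0.25 (SE) higher in Pap than in WT arrays (adjusted p = 0.0349). Probe sets for poly-A spike controls, bacterial RNAs that can be added to a sample, averaged 7.88 to 8.65 in InvEE, 9.30 to 12.17 in WT and 9.89 to 12.41 in Pap arrays. All InvEE arrays lay below all others, so a fit with spike level as a covariate cannot fully part that level from the InvEE group. The Gapdh 3′ minus 5′ probe-set value, which widens as RNA degrades, was widest in WT 4 (2.28), InvEE 3 (3.37) and Pap 4 (3.76) within their groups, against 1.59 to 1.81 in the other WT, 1.62 to 1.97 in the other InvEE and 2.29 to 2.60 in the other Pap arrays. Every Pap array (2.29 to 3.76) lay above every WT array (1.59 to 2.28). A Gapdh covariate therefore cannot fully part this value from the Pap group. Leaving out WT 4, InvEE 3 and Pap 4 keeps the Pap arrays above the WT arrays. Keratinocyte markers, as the mean of 11 genes, lay at 6.42 to 6.87 in WT, 7.80 to 9.06 in InvEE and 6.72 to 8.31 in Pap arrays. The part of these measures in the results was not tested except where a fit with or without them is given.

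Of the 10 markers, 5 changed in Pap against WT arrays: Lrrc15, Fbln2 and Twist2 rose, and S100a4 and Twist1 fell. That is 5 of 10 members, where 9.65% of all genes were called (4.85% higher and 4.80% lower). The members were chosen with earlier results of these data known, so a share above that of all genes is not independent evidence. In Pap against InvEE arrays Fbln2 and Pdpn rose, 2 of 10 members against 6.71% of all genes (3.67% higher). In InvEE against WT arrays limma called 0 of 10 members, with 2 (Lrrc15 and Pdpn) at an unadjusted p under 0.05, against 0.533% of all genes called and 15.6% at that unadjusted p. The arrays of both groups did not overlap for 6 members in Pap against WT, 3 in Pap against InvEE and 1 in InvEE against WT, where 13.8%, 21.1% and 15.3% of all genes did not overlap. The median difference of the 10 members was 0.06 in Pap against WT, 0.18 in Pap against InvEE and -0.07 in InvEE against WT, beside 0.04, 0.12 and -0.09 over all genes. Each pair of comparisons shares the arrays of a group. The markers ran in both directions, and Vim, Thy1 and Prrx1 were not among those called.

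**Figure D1:**
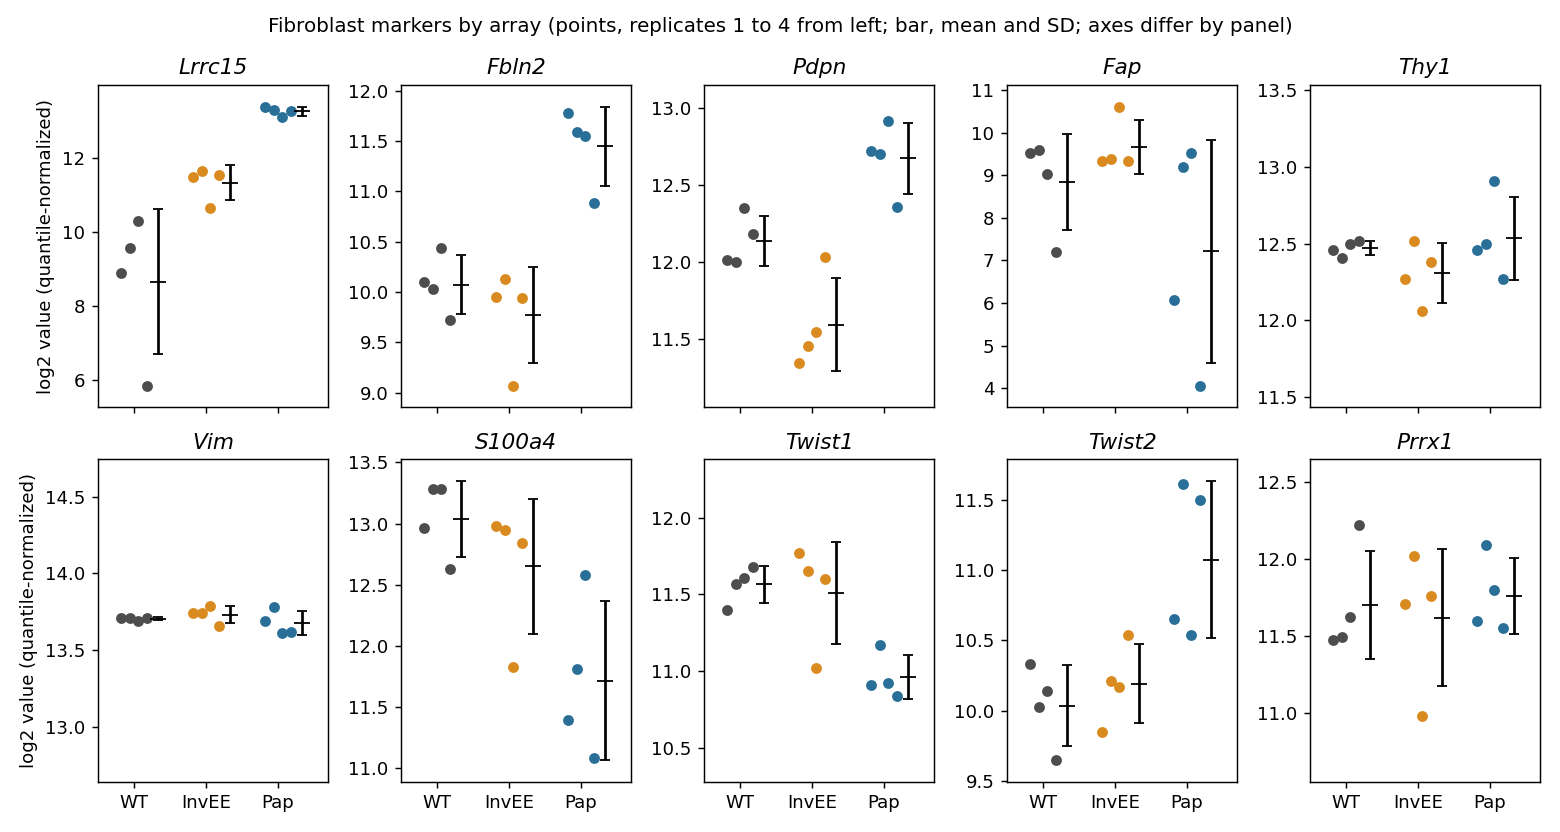
Log2 values of the 10 markers in the WT, InvEE and Pap arrays (points, replicates 1 to 4 from left) with mean and SD of 4 arrays; each panel has its own axis of at least 2 log2 units. Lrrc15 steps up from WT through InvEE to Pap, Fbln2 is high in Pap arrays, and Vim stays within 13.61 to 13.79.

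**Figure D2:**
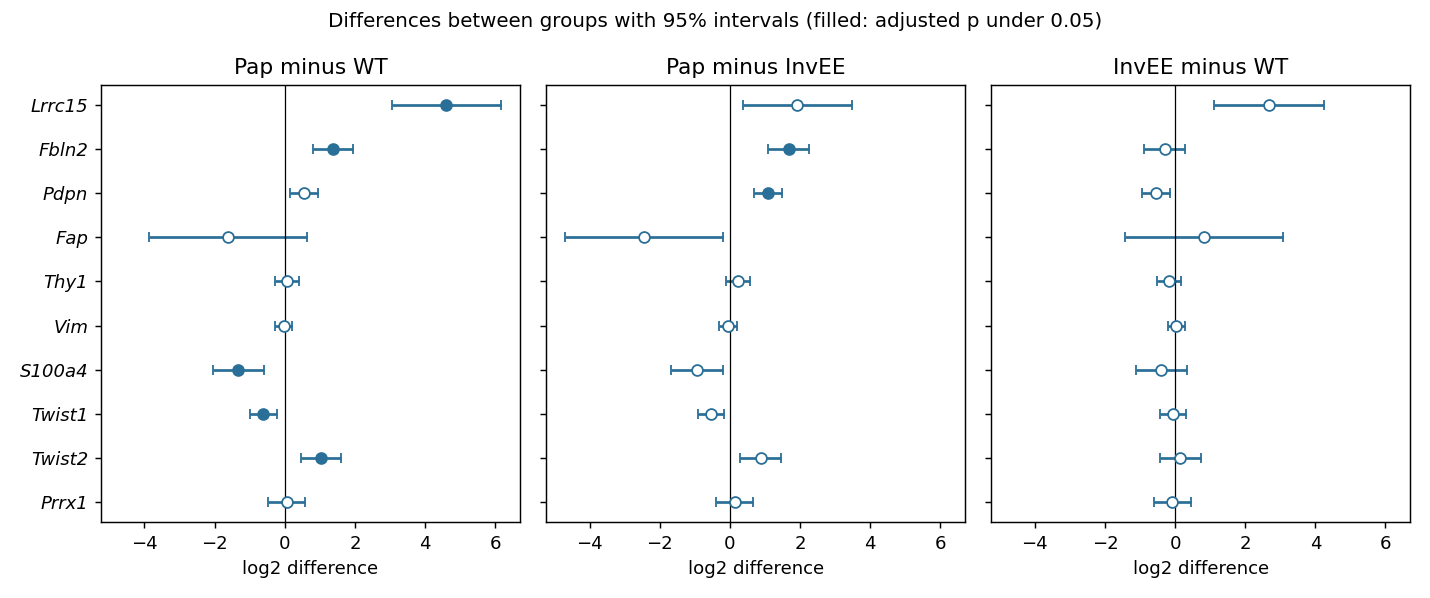
Log2 differences of each marker in the 3 comparisons with 95% intervals from limma; filled points have an adjusted p under 0.05. Lrrc15 has the highest value against WT (4.61), and the interval of Fap spans several log2 units in each panel.

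The promoters of the 4 members that rose in at least 1 Pap comparison are printed here, because these genes carry the question of which marker picks out papilloma fibroblasts. They are RefSeq sequences of build GRCm38.p6, each 300 bases long and running from 250 bases before to 50 bases after the gene's start, written 5′ to 3′ on the gene's strand. Of the 10 members 8 had a promoter in the sequence table, and Fap and Thy1 had none there. Capitals mark matches, on either strand, to the AP-1 motif TGANTCA, the TEAD motif GGAATG, the TATA box TATAAA and the CCAAT box CCAAT.
Lrrc15, chr16:30283205-30283504, minus strand: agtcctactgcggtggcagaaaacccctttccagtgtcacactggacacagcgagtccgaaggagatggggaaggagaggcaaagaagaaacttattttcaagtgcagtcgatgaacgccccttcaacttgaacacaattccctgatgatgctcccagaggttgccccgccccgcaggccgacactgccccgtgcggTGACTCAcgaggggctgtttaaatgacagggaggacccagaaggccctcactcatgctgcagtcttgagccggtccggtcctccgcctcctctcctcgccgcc
Fbln2, chr6:91212514-91212813, plus strand: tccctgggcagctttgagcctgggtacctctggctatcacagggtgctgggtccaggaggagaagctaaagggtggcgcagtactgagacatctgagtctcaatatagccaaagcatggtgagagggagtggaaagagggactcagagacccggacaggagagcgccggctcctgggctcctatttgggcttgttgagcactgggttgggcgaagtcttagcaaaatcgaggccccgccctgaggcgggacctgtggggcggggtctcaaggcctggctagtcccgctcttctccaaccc
Pdpn, chr4:143299515-143299814, minus strand: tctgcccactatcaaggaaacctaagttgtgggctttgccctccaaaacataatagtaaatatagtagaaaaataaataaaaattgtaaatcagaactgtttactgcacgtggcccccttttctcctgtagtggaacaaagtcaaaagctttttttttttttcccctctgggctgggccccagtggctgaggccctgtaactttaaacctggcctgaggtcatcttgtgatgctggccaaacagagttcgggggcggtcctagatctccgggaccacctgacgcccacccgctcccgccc
Twist2, chr1:91801211-91801510, plus strand: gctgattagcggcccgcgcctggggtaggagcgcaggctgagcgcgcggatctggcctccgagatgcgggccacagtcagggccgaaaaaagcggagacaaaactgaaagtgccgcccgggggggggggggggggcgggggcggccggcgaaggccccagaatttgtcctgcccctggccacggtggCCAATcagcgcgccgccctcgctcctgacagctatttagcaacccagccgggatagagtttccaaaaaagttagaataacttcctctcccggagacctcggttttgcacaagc
The Lrrc15 window held an AP-1 match, TGACTCA, at positions -53 to -47 from the start. This motif was found in 7.81% of all 32851 promoters of the table. The Twist2 window held a CCAAT box at positions -63 to -59, a motif found in 37.4% of all promoters. The Fbln2 and Pdpn windows held none of the 4 motifs, where TEAD and TATA motifs were found in 14.7% and 13.6% of all promoters. The 4 genes shared no motif of this search. A match is a string of letters in a window, and no binding was measured.

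Lrrc15, a transmembrane protein with leucine-rich repeats that is used as a marker of TGF-beta-driven tumour fibroblasts, was the marker with the widest range between groups. Its log2 values in WT arrays 1 to 4 were 8.90, 9.57, 10.32 and 5.86. In InvEE arrays they were 11.50, 11.67, 10.66 and 11.55. In Pap arrays they were 13.40, 13.30, 13.11 and 13.28. Every InvEE array lay above every WT array and every Pap array above every InvEE array, an order without overlap that 0.467% of all genes showed. WT 4 was the lowest array and dim, while the Pap arrays lay close together.

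Lrrc15 rose in Pap against WT arrays by 4.61 ± 0.72 (SE, n = 4 arrays per group; limma adjusted p = 0.00176), a 24.4-fold higher level. Without WT 4 the difference was 3.67 and was still called. Against InvEE arrays the Pap level was 1.92 ± 0.72 higher (3.80-fold; adjusted p = 0.121), which did not pass in the fit of all 12 arrays. The spread in that fit is shared by all groups, and the WT arrays had an SD of 1.96 against 0.46 in InvEE and 0.12 in Pap arrays. When only the 8 Pap and InvEE arrays were fitted, the same difference had an adjusted p of 0.00243, and without WT 4 it had an adjusted p of 0.00311. Over the alternatives the adjusted p ran from 0.00243 to 0.218. The InvEE level was 2.68 ± 0.72 above WT (adjusted p = 0.118), or 1.75 without WT 4 (adjusted p = 0.0510). With the spike level as a covariate Lrrc15 was 0.76 higher in InvEE than in WT (adjusted p = 0.737). It was 4.26 higher in Pap than in InvEE arrays (adjusted p = 0.0633). That fit cannot fully part spike level from the InvEE group, so no place of InvEE between the other groups is read from it.

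The other Lrrc15 probe set gave the same order. Its values were 8.97, 8.39, 9.96 and 6.19 in WT, 10.99, 11.18, 11.19 and 11.22 in InvEE, and 13.60, 13.18, 13.13 and 13.31 in Pap arrays. In a limma fit of all probe sets with 1 symbol, it was 4.93 ± 0.58 higher in Pap than in WT (adjusted p = 3.2e-04) and 2.16 ± 0.58 higher in Pap than in InvEE arrays, where the adjusted p stood just above the threshold. WT 4 was low on both probe sets, and InvEE 3 was low on the brighter probe set only. The genes whose levels ran most like Lrrc15 over the 12 arrays were Masp1 (Pearson r = 0.986), Mylk (0.984) and Postn (0.981), given as a description over arrays of 3 groups.

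Fbln2, which encodes the matrix protein fibulin 2, was the member that passed in both Pap comparisons. Its values were 10.10, 10.03, 10.44 and 9.72 in WT arrays. They were 9.95, 10.13, 9.07 and 9.94 in InvEE arrays and 11.78, 11.59, 11.55 and 10.88 in Pap arrays. WT and InvEE arrays overlapped, and all Pap arrays lay above both. Fbln2 rose in Pap arrays by 1.38 ± 0.26 against WT (2.59-fold; adjusted p = 0.00655) and by 1.68 ± 0.26 against InvEE (3.20-fold; adjusted p = 0.00307). InvEE and WT arrays differed by -0.30, with a 95% interval from -0.88 to 0.27.

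The second Fbln2 probe set did not show this difference. Its mean of 6.67 lay above the dim limit of 6.16, though some arrays lay under that limit. Its values were 5.86, 6.83, 6.69 and 7.36 in WT, 5.96, 6.51, 6.34 and 6.43 in InvEE, and 7.13, 7.46, 7.87 and 5.55 in Pap arrays. In the fit of all probe sets it differed by 0.32 ± 0.44 between Pap and WT (adjusted p = 0.739) and by 0.69 ± 0.44 between Pap and InvEE arrays (adjusted p = 0.346). Pap 4 was the lowest array on it and also the lowest Pap array on the brighter probe set. With the mean of both probe sets as the gene's level, the Pap against WT difference was 0.85 (adjusted p = 0.0850), while that against InvEE, 1.19, was still called (adjusted p = 0.0239). The calls in both comparisons were made on 1 of 2 probe sets. Over the 12 arrays Anxa1 (r = 0.967), Plaat3 (0.949) and Ifi47 (0.940) ran most like the brighter one.

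**Figure D3:**
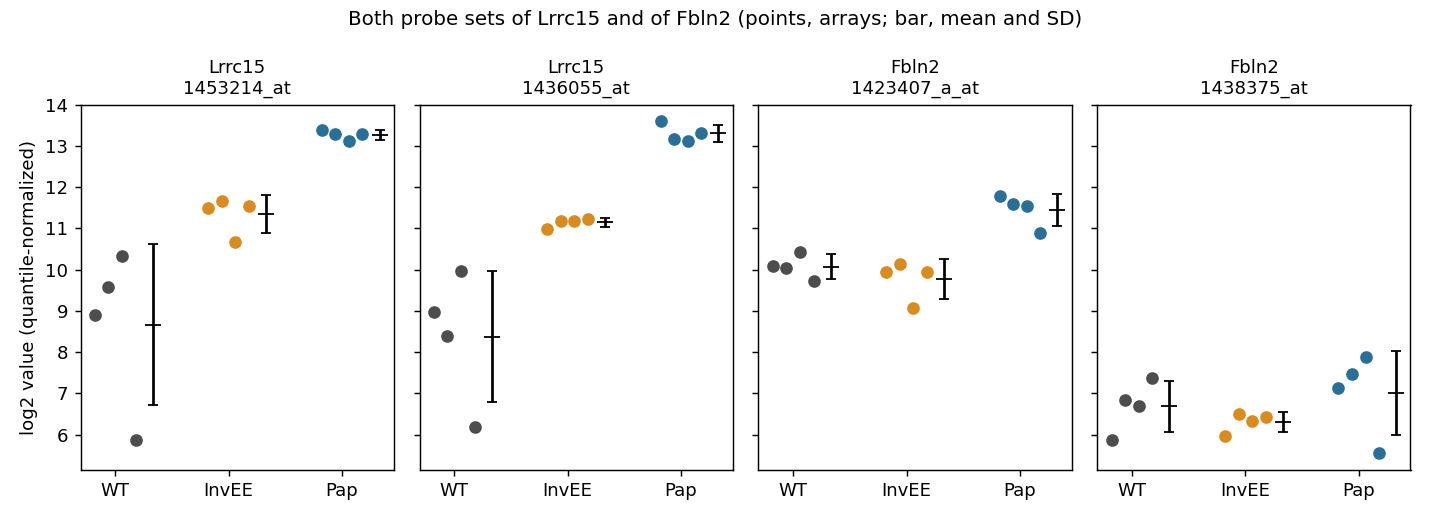
Log2 values of both probe sets of Lrrc15 and of Fbln2 by array, with mean and SD of 4 arrays per group. The Lrrc15 probe sets share the order WT, InvEE, Pap; of the Fbln2 probe sets, only the brighter one, with Pap arrays at 10.88 to 11.78, separates the Pap arrays.

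Among the other fibulins, extracellular proteins of elastic fibres, 5 of 7 listed genes were measured. Against WT, Fbln5 rose in Pap arrays by 1.15 ± 0.25 (adjusted p = 0.0114) and Efemp1, fibulin 3, fell by 2.23 ± 0.50 (adjusted p = 0.0145). Fbln5 also rose against InvEE arrays, by 0.97 ± 0.25 (adjusted p = 0.0354), and 0 fibulins were called there by limma without WT 2, InvEE 1, InvEE 2, InvEE 4 or Pap 1.

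Pdpn encodes podoplanin, a mucin-type membrane protein that binds the cytoskeletal linkers ezrin and moesin. Its values were 12.01, 12.00, 12.35 and 12.18 in WT arrays, 11.34, 11.45, 11.54 and 12.03 in InvEE arrays, and 12.72, 12.70, 12.92 and 12.36 in Pap arrays. All Pap arrays lay above all others, but the lowest, Pap 4, cleared the highest WT array by 0.02. Pdpn rose in Pap against InvEE arrays by 1.09 ± 0.18 (2.12-fold; adjusted p = 0.00428). The difference from WT, 0.54 ± 0.18, did not pass (adjusted p = 0.0865), and it passed at 0.65 without Pap 4 (adjusted p = 0.0424). InvEE arrays were 0.54 below WT (adjusted p = 0.192).

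Of 9 podoplanin partners, proteins that bind it or act in its signalling, 2 rose in Pap against WT and 0 fell: Cd44, a hyaluronan receptor, by 2.30 ± 0.49 (adjusted p = 0.0113), and Rhoc, a small GTPase, by 0.73 ± 0.16 (adjusted p = 0.0148). Their median difference was 0.40, beside 0.04 over all genes. Without InvEE 3 the count was 4, and with the Gapdh covariate limma called 0. Lymphatic endothelial markers, another source of Pdpn, had a mean level of 5.35 to 5.59 in WT, 5.27 to 5.71 in InvEE and 5.42 to 6.01 in Pap arrays over 5 genes. Limma called none of the 5 in any comparison, with 1 at an unadjusted p under 0.05 in Pap against WT, and 3 of the 5 were dim.

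Fap, the fibroblast activation protein, a surface serine protease, was not higher in Pap arrays. Its values were 9.53, 9.59, 9.02 and 7.20 in WT, 9.34, 9.37, 10.61 and 9.33 in InvEE, and 6.07, 9.18, 9.53 and 4.06 in Pap arrays. Pap 2 and Pap 3 stood at the level of most WT and InvEE arrays, while Pap 1 and Pap 4 were dim. The mean Pap level was 1.63 ± 1.03 below WT (adjusted p = 0.400) and 2.46 ± 1.03 below InvEE (adjusted p = 0.157), or 1.41 below InvEE without Pap 4 (adjusted p = 0.329). The 95% interval of the difference from WT ran from -3.87 to 0.62, so a higher Pap level of up to 0.62 was not told apart from a lower one.

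Fap was read by 1 probe set, and its low arrays included those with wide Gapdh differences in the WT and Pap groups (WT 4 and Pap 4), though not in the InvEE group, where InvEE 3 was highest in Fap. Without WT 4, InvEE 3 and Pap 4 the Pap against WT difference in Fap was -1.14 (limma adjusted p = 0.388), and without Pap 4 alone it was -0.58. Once spike level entered as a covariate, the Pap against InvEE difference was 1.43 (adjusted p = 0.601), of opposite sign. That fit cannot fully part spike level from the InvEE group. Among 9 proline-specific peptidases related to Fap 1 changed in Pap against WT: Dpp4, the closest relative and itself a fibroblast surface marker, fell by 1.98 ± 0.46 (adjusted p = 0.0187), and without WT 4 or without Pap 4 the count was 2.

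S100a4, a small calcium-binding protein also known as fibroblast-specific protein, fell. WT arrays read 12.96, 13.28, 13.28 and 12.63, InvEE arrays 12.98, 12.95, 11.83 and 12.84, and Pap arrays 11.39, 11.81, 12.58 and 11.08. All Pap arrays lay below all WT arrays, while Pap 3 reached into the InvEE range. S100a4 fell in Pap against WT, with a difference of -1.32 ± 0.34 (adjusted p = 0.0283). The difference from InvEE was -0.94 ± 0.34 (adjusted p = 0.113), and it was called without InvEE 3 or without Pap 3 (adjusted p = 0.0429 and 0.0369). The call against WT was lost in 6 of 12 fits that left out 1 array (without WT 1, 2 or 3 or Pap 1, 2 or 4; adjusted p from 0.0518 to 0.0758). With the Gapdh difference as a covariate the value was -0.69 (adjusted p = 0.198).

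Other S100 genes did not move as a block. Of 11 measured relatives, S100a9, an alarmin subunit of myeloid cells and stressed keratinocytes, rose in Pap against WT by 1.11 ± 0.24 (adjusted p = 0.0130), and S100a1 fell by 0.86 ± 0.18 (adjusted p = 0.0107). The S100a9 means were dim in WT (5.98) and InvEE arrays (6.08). Against InvEE arrays both were called, by 1.02 and -0.73, but neither was without InvEE 2, InvEE 3, InvEE 4, Pap 2 or Pap 4, and 1 S100 gene was called without Pap 1 or Pap 3. The median of the list was 0.07 against WT, beside 0.04 over all genes. Macrophage markers, since macrophages also make S100a4, had a mean level over 12 genes of 6.60 to 7.00 in WT, 6.15 to 6.85 in InvEE and 6.34 to 6.97 in Pap arrays, and 5 of the 12 were dim. Only Csf1r, the receptor of a macrophage growth factor, changed among them, with a difference of -2.14 ± 0.45 in Pap against WT (adjusted p = 0.0102).

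Thy1 and Vim, the general surface and cytoskeletal markers, were bright and nearly level. Thy1, a GPI-anchored adhesion protein, read 12.46, 12.41, 12.50 and 12.52 in WT, 12.27, 12.52, 12.06 and 12.38 in InvEE, and 12.46, 12.50, 12.91 and 12.27 in Pap arrays. Its difference between Pap and WT was 0.06, with a 95% interval from -0.29 to 0.41. The T cell markers, as T cells also carry Thy1, stood at a mean of 5.62 to 6.04 in WT arrays over 8 genes, and InvEE and Pap arrays lay within 5.61 to 6.04 too. Vim, an intermediate filament protein, read 13.71, 13.71, 13.69 and 13.71 in WT, 13.74, 13.74, 13.79 and 13.66 in InvEE, and 13.69, 13.78, 13.61 and 13.62 in Pap arrays.

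The Pap and WT arrays differed in Vim by -0.03, with an interval from -0.27 to 0.22, and its 3 probe sets gave -0.03, 0.02 and -0.07. Vim values lay near the top of the deposited range, whose maximum was 14.96. Of the 12 related intermediate filament and lamin genes, limma called 0 in Pap against WT, with 1 at an unadjusted p under 0.05. Their median difference was -0.06. Neither Thy1 nor Vim passed in any comparison.

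Twist1 fell and Twist2 rose in Pap against WT arrays. Twist1 read 11.40, 11.57, 11.61 and 11.68 in WT, 11.77, 11.65, 11.02 and 11.60 in InvEE, and 10.91, 11.17, 10.92 and 10.84 in Pap arrays. Twist2 read 10.33, 10.03, 10.14 and 9.65 in WT, 9.85, 10.21, 10.17 and 10.54 in InvEE, and 10.65, 11.61, 10.54 and 11.50 in Pap arrays. Against WT, all Pap arrays were below in Twist1 and above in Twist2, while InvEE 3 reached the Pap range of Twist1 and InvEE 4 stood level with Pap 3 in Twist2.

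Against WT, Twist1 fell in Pap arrays by 0.61 ± 0.17 (adjusted p = 0.0442) and Twist2 rose by 1.03 ± 0.27 (2.05-fold; adjusted p = 0.0289). Against InvEE the differences were -0.55 (adjusted p = 0.0777) and 0.88 (adjusted p = 0.0695), and neither passed. Leaving out 1 array ended the Twist1 call in 10 of 12 fits, all but those without InvEE 3 or Pap 2 (adjusted p from 0.0520 to 0.0957). It ended the Twist2 call in 5 of 12 (without WT 2, 3 or 4 or Pap 2 or 4; adjusted p from 0.0520 to 0.0744). With all 12 arrays kept, Twist1 was not called on the values as deposited. Nor was it called when all probe sets were fitted together (limma adjusted p = 0.0501). Without WT 4, InvEE 3 and Pap 4 together Twist2 was 0.77 higher in Pap than in WT (adjusted p = 0.125). With the Gapdh covariate the differences from WT were -0.36 for Twist1 (adjusted p = 0.297) and 0.98 for Twist2 (adjusted p = 0.131).

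The difference Twist2 minus Twist1 within each array was chosen after the values were seen, so it is given as a description and no test result is read from it. It was -1.07, -1.54, -1.47 and -2.03 in WT, -1.92, -1.43, -0.84 and -1.06 in InvEE, and -0.26, 0.44, -0.38 and 0.66 in Pap arrays. Every Pap array lay above every other array. The mean was 1.64 higher in Pap than in WT and 1.43 higher in Pap than in InvEE arrays. InvEE and WT arrays differed by 0.21. Since 2 probe sets are set against each other, only the change between groups can be read, not which gene is more abundant.

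**Figure D4:**
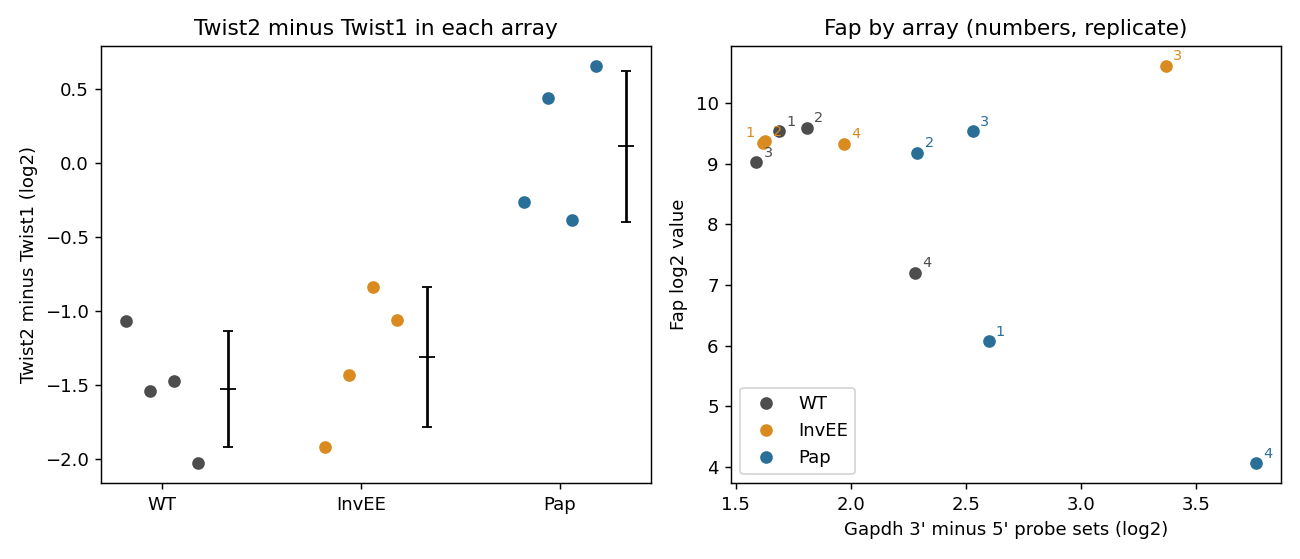
Left, Twist2 minus Twist1 (log2) in each array with mean and SD of 4 arrays; the Pap arrays, from -0.38 to 0.66, lie above the others. Right, Fap log2 value against the Gapdh 3′ minus 5′ difference, 1 point per array with its replicate number; Pap 4 (4.06), Pap 1 (6.07) and WT 4 (7.20) are lowest in Fap.

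Of 10 genes of basic helix-loop-helix partners and inhibitors, 3 fell in Pap against WT and 0 rose. They were the inhibitors of DNA binding Id1 (-0.92 ± 0.23, adjusted p = 0.0234), Id2 (-1.18 ± 0.24, adjusted p = 0.00902) and Id3 (-1.14 ± 0.13, adjusted p = 1.9e-04), which dimerise with E proteins and are known as BMP targets. The E proteins that pair with Twist did not pass: Tcf3 differed by -0.43 (adjusted p = 0.185), Tcf4 by 0.01 (adjusted p = 0.983) and Tcf12 by -0.39 (adjusted p = 0.548). Id1, Id2 and Id3 were also called lower against InvEE arrays, where 0 were with the spike covariate, and 1 gene of the list was called in each of these comparisons without suffixed probe sets. The list's median was -0.41 against WT, beside 0.04 over all genes. Over the 12 arrays, Gabpb2 (r = 0.965), Errfi1 (0.949) and Zfp36l2 (0.937) ran most like Twist1, Actr1a (0.921), Hlcs (0.920) and Pgap3 (0.918) most like Twist2, and Slc1a5 (0.962), Cry2 (0.948) and Gstp1 (0.943) most like S100a4.

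Prrx1, a paired-related homeobox factor of limb and dermal mesenchyme, did not separate the groups. It read 11.47, 11.49, 11.62 and 12.22 in WT, 11.71, 12.02, 10.98 and 11.76 in InvEE, and 11.60, 12.09, 11.80 and 11.55 in Pap arrays. The Pap and WT arrays differed by 0.06 (95% interval -0.47 to 0.58), and the 6 probe sets gave -0.61 to 0.27, none called in any comparison. Its paralogue Prrx2 rose in Pap against WT by 1.14 ± 0.30 (adjusted p = 0.0348). Of 12 measured mesenchymal transcription factors Prrx2 and Snai2, a repressor of epithelial genes (2.10 ± 0.47, adjusted p = 0.0150), rose and Osr2, an odd-skipped related factor, fell by 3.37 ± 0.33 (adjusted p = 7.3e-05).

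To ask which marker would single out papilloma fibroblasts, a member had to be called higher in Pap than in WT and than in InvEE arrays, and its lowest Pap array had to lie above the highest of the 8 other arrays. Fbln2 met this, as did 2.06% of all genes. The gap between its lowest Pap array and the highest other array (WT 3) was 0.44, which ranked 222 among 18193 genes (1.22% had a gap as wide). Lrrc15 had a gap of 1.44, rank 60, and both of its probe sets had a gap (1.44 and 1.91), but its call against InvEE was missing in the fit of all arrays. It met the rule without WT 4, and also when WT 4, InvEE 3 and Pap 4 were left out together. When only the 8 arrays compared were fitted, Lrrc15 and Fbln2 were each called higher in both Pap comparisons. With its gap of 1.44, Lrrc15 thus also met the rule there with no array of the compared groups left out. Pdpn had a gap of 0.02, rank 648, which was -0.20 on the values as deposited, and the lowest Twist2 value in Pap was level with InvEE 4. Pdpn also met the rule without Pap 4, and Twist2 met it without Pap 3. All Pap arrays lay above the other 8 in 3.80% of all genes.

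Fbln2 met the rule in each of the 12 fits that left out 1 array. It did not meet it when probe sets with the suffixes _x_at, _s_at or _a_at were left out or when the probe sets of a gene were averaged. In those fits 0 members did, with the Fbln2 gap at -1.81 and -0.35. Leaving out suffixed probe sets left Fbln2 only its second probe set, with a mean of 6.67. Of the 10, Lrrc15 had the wider separation on both its probe sets, with InvEE arrays between the others and not called against either in the fit of all arrays, and Fbln2 had the calls on 1 probe set. Fap, Thy1, Vim, S100a4, Twist1 and Prrx1 each had at least 1 Pap array inside or below the range of the others.

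**Figure D5:**
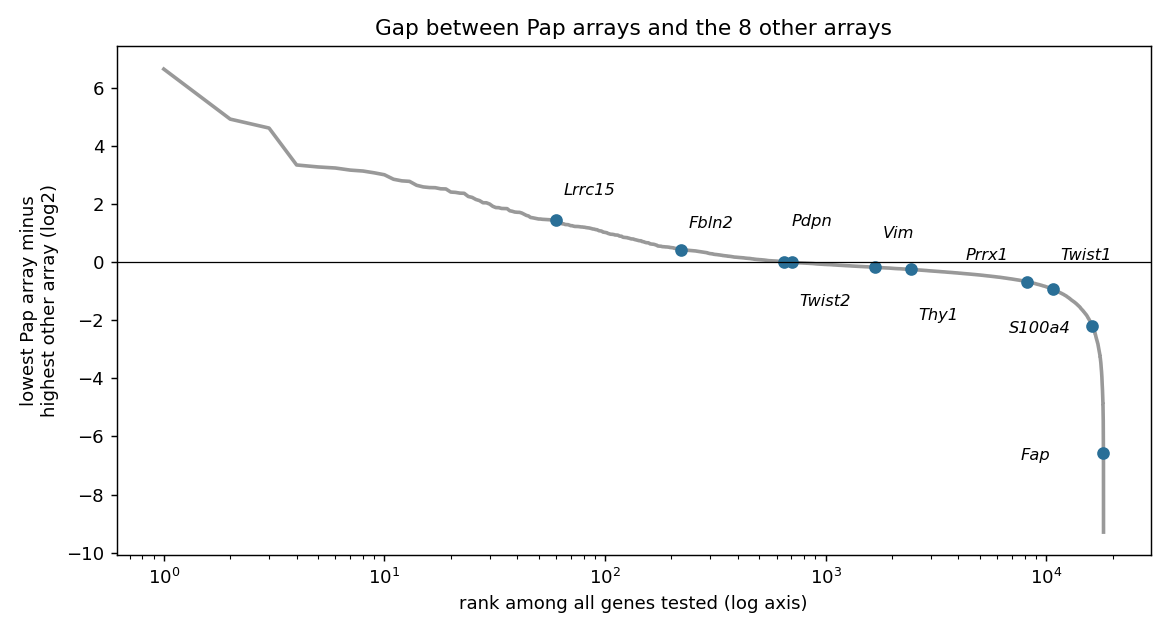
Lowest Pap array minus highest WT or InvEE array (log2) for all 18193 genes in order of rank (grey line; rank on a log axis), with the 10 markers as points. Lrrc15 (1.44) and Fbln2 (0.44) lie clearly above 0, Pdpn (0.02) just above it, and Fap (-6.55) near the end.

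The gap of Lrrc15 was reached or passed by 0.330% of all genes. The 5 widest gaps were those of Mmp13, a collagenase (6.65), Krt6b, a keratin of wounded epidermis (4.93), Col12a1, a fibril-associated collagen (4.62), Adam12, a metalloprotease (3.35), and Ucn2, a peptide hormone (3.28). Of 20 measured genes in a list of other activated or cancer-associated fibroblast markers, 13 rose in Pap against WT and 0 fell, with a median of 2.90 beside 0.04 over all genes. The largest were Mmp13 (7.59 ± 0.29, adjusted p = 4.5e-08), Adam12 (6.14 ± 0.49, adjusted p = 1.7e-05) and Tnc, the matrix glycoprotein tenascin C (6.07 ± 0.53, adjusted p = 3.1e-05). The Mmp13 means were dim in WT (2.78) and InvEE arrays (3.00), so the size of its difference and of its gap depends on the background correction. Against InvEE arrays 10 of the 20 rose and 0 fell, with a median of 1.42. This list was drawn up with results of these arrays known, so its direction is not independent evidence.

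In InvEE against WT arrays 4 of these 20 genes rose: Acta2 (2.99 ± 0.54), Col11a1 (2.71 ± 0.50), Tagln (adjusted p = 0.0302) and Col12a1 (0.99 ± 0.15), genes of contractile filaments and collagens. Limma called 0 of the 20 there when WT 1, WT 2, InvEE 1, InvEE 2 or InvEE 3 was left out, and with the spike covariate or the replicate block, and 2 without InvEE 4, Pap 2 or Pap 3. In the fit of all arrays 10 of the 20 stood at an unadjusted p under 0.05. The genes of general fibroblast identity behaved otherwise. Of 17 measured, 1 rose in Pap against WT (Pdgfra) and 3 fell: Cd34, a sialomucin (-2.70 ± 0.53), Col15a1, a basement membrane zone collagen (-2.26 ± 0.48), and Dpp4 (-1.98 ± 0.46). Their median was 0.03, beside 0.04 over all genes, and their mean level was 12.00 to 12.37 in WT, 11.86 to 12.14 in InvEE and 11.42 to 12.34 in Pap arrays. In Pap against InvEE arrays 3 of the 17 rose and 1 fell, and leaving out 1 array gave 0 to 4 calls by limma. Of all genes 9.65% were called in Pap against WT and 6.71% in Pap against InvEE.

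Markers of other cells that the sort could hold were read from marker lists. Of 11 keratinocyte markers, Dsp, a desmosome protein (3.11 ± 0.81), and Krt14, a basal keratin (2.38 ± 0.58), rose in Pap against WT, and Krt15 (1.89 ± 0.27) and Perp (3.50 ± 0.68) rose in InvEE against WT. Of 8 blood endothelial markers Plvap fell in Pap against WT by 2.30 ± 0.39, of 5 Schwann cell markers Pmp22 fell by 0.86 ± 0.23, and of 6 neutrophil markers Mpo rose by 0.94 ± 0.26. Of 9 pericyte and smooth muscle markers Kcnj8 (-4.01 ± 0.27) and Abcc9 (-2.12 ± 0.58) fell and Cnn1 (1.98 ± 0.31) rose in Pap against WT, and Kcnj8 differed by -1.86 ± 0.27 in InvEE against WT. Limma called 0 of 8 T cell markers in Pap against WT, with 1 at an unadjusted p under 0.05. Of the T cell markers 3 were dim over all arrays, and of the neutrophil markers 4. Dsp (5.92), Perp (5.35), Cnn1 (5.37) and Mpo (5.60) had dim WT means, so the size of their rises depends on the background correction. In Pap against InvEE arrays, where Fbln2 and Pdpn were called, the calls of these lists were Krt15 (-2.16), Plvap (-1.68), Kcnj8 (-2.14), Cspg4 (-1.34), Notch3 (-1.31), Cnn1 (2.29) and Mpo (1.43), of which Cspg4 and Notch3 are named after their values were seen. The keratinocyte markers had a median of -0.79 there, with 0 of 11 above 0, beside 0.12 over all genes. The part of these cells in the marker differences was not tested.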

How the data were processed

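The authors deposited 1 log2 value per probe set and array for 12 arrays and 45101 probe sets. Per the submitters' processing notes limma was used, and how probes were summarised, corrected for background and scaled is not stated there. Lower quartiles of the arrays spanned 0.284, so values were quantile-normalized (done where quartiles differed by over 0.1). Of the probe sets 34945 carried exactly 1 symbol and were no controls, and the brightest probe set stood for each of 18193 genes. Limma 3.58.1 in R 4.3.3 fitted 3 group means to all arrays (lmFit, eBayes), two-sided, with Benjamini-Hochberg adjustment. The fit was also run on simulated data with independent normal noise of equal spread in all groups. That run set no limit to pass and held no batch, pairing or unequal spread, so nothing is concluded from it. Alternatives are listed in the closing section. Where 1 array was left out, the probe set per gene was kept. Gene lists and members were chosen with earlier results of these data known. Named beside the members were, per list, up to 3 genes called in Pap against WT by largest difference, those called in InvEE against WT, Pdgfra, the 3 genes most like each called member, and the 5 widest gaps. The number of arrays limits the precision. No detection calls were used here.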

Additional observations from a re-analysis of the deposited data

Results flagged for a closer look

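In InvEE 3, 3 markers stood apart from the other 3 arrays of their group by more than Dixon's 95% critical value for 4 samples. Fap read 10.61, where the next InvEE array read 9.37. S100a4 read 11.83, where the next read 12.84, and Lrrc15 read 10.66, where the next read 11.50. Of 30 groups of 4 arrays tested 3 were beyond that limit, and chance alone passes it in about 1 in 20. InvEE 3 also had the widest Gapdh 3′ minus 5′ difference of its group (3.37), whose part in these values was not tested.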

How the results depend on the processing

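The cause of the changes below was not tested. Members called in Pap against WT numbered 5, and 3 when only the 8 arrays compared were fitted, 2 with the replicate number as a block, 2 at an adjusted p under 0.01 and 2 with the Gapdh covariate. Leaving out 1 array gave 2 to 5, with 2 without WT 2 or WT 3 and 3 without WT 1, WT 4, Pap 1, Pap 2 or Pap 4. In Pap against InvEE the count was 2. It was 1 without suffixed probe sets, 5 when WT 4, InvEE 3 and Pap 4 were left out, and 2 to 4 without 1 array (4 without InvEE 3 or Pap 3). In InvEE against WT it was 0, and 1 (Lrrc15) without those 3 arrays. Members that set the Pap arrays apart numbered 1. There were 2 with the spike covariate (Pdpn added) and 2 without the 3 arrays (Lrrc15 added), 0 without suffixed probe sets and 0 with probe sets averaged. Without 1 array there were 1 to 2, with 2 without WT 4 (Lrrc15 added), Pap 3 (Twist2 added) or Pap 4 (Pdpn added). This count was not made for the fits of only the 8 arrays compared, where Lrrc15 and Fbln2 were called higher in both Pap comparisons.

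Genes called in Pap against WT numbered 1756, against 1094 with 8 arrays, 3107 with all probe sets fitted, 757 at an adjusted p under 0.01, 970 with the Gapdh covariate and 1261 to 1791 without 1 array. In Pap against InvEE they numbered 1221, against 241 with the spike covariate, 2088, 396, 2053 without the 3 arrays, 778 with the Gapdh covariate and 578 to 1577 without 1 array (578, 621 and 716 without InvEE 1, 2 and 4). In InvEE against WT they numbered 97, against 62 on deposited values, 57 with the block, 0 with the spike covariate, 228 with probe sets averaged, 0 at an adjusted p under 0.01, 151 without the 3 arrays, 152 with the Gapdh covariate and 0 to 252 without 1 array (0 without WT 1, InvEE 1 or InvEE 2, 13 without WT 2, 44 without InvEE 3, 50 without Pap 2, 55 without Pap 3 and 252 without Pap 4). Where limma called 0 genes, 2185 stood at an unadjusted p under 0.05 with the spike covariate, 2837 in the fit read at an adjusted p under 0.01, and 2356, 2219 and 1964 without WT 1, InvEE 1 and InvEE 2.

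Differences of members between groups that changed sign were ones that had not been called; the gap of Fbln2 also went from 0.44 to -1.81 without suffixed probe sets and -0.35 with probe sets averaged, and that of Pdpn from 0.02 to -0.20 on deposited values. With the spike covariate, Pap against InvEE gave 1.43 for Fap, 0.02 for S100a4 and -0.10 for Prrx1, and InvEE against WT gave -2.38 for Fap and 0.11 for Prrx1. Spike level and the InvEE group cannot be fully parted in that fit, which also holds for its counts of genes called. With probe sets averaged, Prrx1 gave -0.07, -0.11 and 0.03 in the 3 comparisons. Without the 3 arrays, InvEE against WT gave -0.03 for Fap, 0.14 for Twist1, 0.30 for Prrx1 and -0.11 for Twist2 minus Twist1, and Prrx1 gave -0.00 in Pap against InvEE. With the Gapdh covariate Twist1 gave 0.02 and Prrx1 0.01 in InvEE against WT. Without 1 array Prrx1 ran from -0.06 to 0.23, -0.07 to 0.27 and -0.22 to 0.13, Thy1 from -0.07 to 0.15 in Pap against WT and Twist1 from -0.14 to 0.10 in InvEE against WT.

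Same-numbered arrays of different groups correlated at -0.09 to 0.18 in their deviations from group means. An array correlated best with its own number in 5 of 8 cases for WT and InvEE. For WT and Pap it was 4 of 8, and for InvEE and Pap 1 of 8. Spike levels of arrays 1 to 4 were 10.31, 10.24, 9.30 and 12.17 in WT. They were 11.02, 10.65, 9.89 and 12.41 in Pap and 8.65, 8.18, 8.09 and 7.88 in InvEE. Whether the numbers pair the samples is not settled, and the main fit does not pair them. With the replicate block Lrrc15 and Fbln2 were still called in Pap against WT, while S100a4, Twist1 and Twist2 were not. Pdpn and Fbln2 were called in Pap against InvEE, and genes called were 1551 and 1039. Under a Gapdh covariate, a robust prior and the 3-array fit, all chosen after seeing the data, Fbln2 still set the Pap arrays apart. The Gapdh difference was wider in all Pap than in all WT arrays, so neither the covariate nor the 3-array fit can fully part it from the Pap group.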
